A study of Homo sapiens with 8 samples.

Results

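In the prostate cancer line PC3, 1921 of the 2891 HIF-1β peaks listed for replicate 2 shared no base with any of the 1042 peaks listed for replicate 1. These 1921 regions, 66.4% of the replicate 2 list (95% exact binomial interval 64.7-68.2) and part of 18645 peaks in all 8 lists of the series, are described here. They were chosen on the peak calls of both PC3 replicates, and were divided by whether they overlapped by at least 1 bp a site of T47D, A549 or HCT-116, a site being a place where the peaks of both replicates of that line overlapped. The other 970 replicate 2 peaks overlapped a replicate 1 peak and are called PC3 site peaks. Because the peak calls chose the regions, the counts that follow from the choice are given without a test, and intervals cover counting error only.

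The series held chromatin immunoprecipitation sequencing (ChIP-seq) of HIF-1β, with 2 replicates in each of PC3, the breast line T47D, the lung line A549 and the colorectal line HCT-116. All 8 libraries came from cells kept at 0.5% oxygen for 16 hours in serum-containing DMEM, so no group without hypoxia enters any comparison. The lists hold intervals and a score for each, with no reads and no expression, so depth is unknown and the line labels were not checked against markers. The replicate 1 list of PC3 was the shortest of the 8, with 1042 peaks, against 1270 to 3790 in the other 7.

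HIF-1β, also called ARNT, is the stable partner that the oxygen-regulated HIF-α subunits need to bind DNA. The dimer recognises a short core, ACGTG or GCGTG, in the hypoxia response elements of genes for glycolysis, blood vessel growth, pH control and oxygen sensing. HIF-1β also pairs with the aryl hydrocarbon receptor and other factors of its family, so a HIF-1β peak is not by itself a peak of a particular HIF-α.

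Of the 1921 peaks missing in replicate 1, 674 (35.1%, 32.9-37.3) lay at a site of another line, against a background of 46.6% over all replicate 2 peaks. The remaining 1247 (64.9%) lay at no site of another line. Of the 674, 404 lay at a site of 1 line, 225 at sites of 2 lines and 45 at sites of all 3. Of the 1247, 307 overlapped a peak of at least 1 library of another line without being at a site there, and 940 overlapped no peak of the 6 other libraries. Sites whose peaks both ranked in the higher-scoring 50% of their lists held 20.2% of the missing peaks.

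The windows that follow are reference sequence of GRCh37, the build of the peak lists, each centred on the motif match nearest to the peak midpoint that lay outside annotated untranslated sequence. None overlaps an annotated exon. Capitals mark ACGTG or GCGTG on the printed strand or, as CACGT or CACGC, on the other. The first set is shown because these peaks, absent from replicate 1, lay at sites of 2 or 3 other lines next to genes of oxygen sensing, chromatin, vessel growth, glycogen synthesis, respiration and splicing. They are chr6:139696843-139696923 (plus strand), chrX:53254613-53254693 (minus), chr6:43739130-43739210 (plus, in an intron), chr19:49496632-49496712 (plus), chr7:25164919-25164999 (plus) and chr1:29508498-29508578 (plus), and all but the VEGFA window are intergenic.
CITED2: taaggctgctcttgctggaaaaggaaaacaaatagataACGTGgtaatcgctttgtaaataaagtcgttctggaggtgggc
KDM5C: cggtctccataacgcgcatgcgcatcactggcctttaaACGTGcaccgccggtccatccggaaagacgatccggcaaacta
VEGFA: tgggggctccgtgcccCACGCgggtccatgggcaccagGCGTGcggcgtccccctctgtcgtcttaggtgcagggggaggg
GYS1: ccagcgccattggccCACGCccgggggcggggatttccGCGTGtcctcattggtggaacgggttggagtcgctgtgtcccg
CYCS: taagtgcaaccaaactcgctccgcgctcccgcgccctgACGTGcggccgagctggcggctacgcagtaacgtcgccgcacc
SRSF4: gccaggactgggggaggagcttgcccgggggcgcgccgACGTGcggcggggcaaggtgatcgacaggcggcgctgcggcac

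The second set is shown for contrast: promoter peaks that carried the same core and lay at no site of another line. The windows are chrX:128788006-128788086 (minus strand, in an intron), chr6:12290433-12290513 (minus, intergenic) and chr2:198299817-198299897 (minus, intergenic).
APLN: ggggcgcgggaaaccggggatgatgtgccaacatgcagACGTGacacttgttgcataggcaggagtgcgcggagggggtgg
EDN1: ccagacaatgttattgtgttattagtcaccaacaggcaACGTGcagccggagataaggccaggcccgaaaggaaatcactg
SF3B1: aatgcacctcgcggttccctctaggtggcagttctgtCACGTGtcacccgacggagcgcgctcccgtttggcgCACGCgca

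The third set shows TGANTCA in capitals in high-scoring missing peaks. This pattern takes in TGACTCA and TGAGTCA, the heptamer recognised by AP-1 factors of the FOS and JUN families. It also counts TGAATCA and TGATTCA, which differ from that heptamer at the middle base, and all TGANTCA shares pool these forms. The SOX9 and TENM4 windows hold TGAATCA. The first 4 come from peaks at no site of another line, GPRC5A from a peak at A549 and HCT-116 sites, and PITPNM2 from a peak at an A549 site alone. They lie at chr4:74606111-74606193 (intergenic), chr11:127896669-127896751 (intergenic), chr17:70403717-70403799 (intergenic), chr11:78508172-78508254 (in an intron), chr12:13025750-13025832 (intergenic) and chr12:123574453-123574535 (in an intron), all printed on the plus strand. Each window is named for the gene with the nearest start, which for ETS1 and SOX9 lay 478577 and 286593 bp from the match.
CXCL8: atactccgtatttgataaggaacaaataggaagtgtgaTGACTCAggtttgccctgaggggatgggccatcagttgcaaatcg
ETS1: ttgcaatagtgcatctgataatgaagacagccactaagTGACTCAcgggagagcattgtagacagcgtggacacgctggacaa
SOX9: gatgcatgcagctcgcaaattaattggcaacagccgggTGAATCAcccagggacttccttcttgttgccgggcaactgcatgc
TENM4: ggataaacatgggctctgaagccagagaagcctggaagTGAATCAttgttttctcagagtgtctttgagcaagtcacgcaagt
GPRC5A: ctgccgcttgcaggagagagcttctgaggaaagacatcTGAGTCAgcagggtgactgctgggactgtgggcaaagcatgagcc
PITPNM2: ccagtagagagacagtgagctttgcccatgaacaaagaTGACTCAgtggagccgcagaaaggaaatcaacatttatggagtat

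The clearest contrast between the classes was their position. Peaks at a site of another line lay mostly at promoters, within 2 kb of a protein-coding transcript start: 59.1% of them did (55.3-62.9, 398 of 673 on the main chromosomes). Peaks at no site of another line lay there in 23.1% (20.8-25.5, 288 of 1247). The background was 38.0% over all replicate 2 peaks, and the PC3 site peaks stood between the classes at 42.5% (39.3-45.7). The promoter share rose with the number of lines, from 50.6% at 1 line to 68.9% at 2 and 86.7% (73.2-94.9, 39 of 45) at 3. It was lowest, 16.9% (14.6-19.5), among the 940 peaks met by no other library. With the starts of all annotated genes in place of protein-coding ones, the shares were 70.6% and 36.4%. The site lists used for the division differed in position themselves. T47D had 2065 sites, HCT-116 1757 and A549 1041, and these lay within 2 kb of a start of 1469, 1283 and 371 genes. The division by site carries the position of those sites, and the part of this in the contrast was not tested.

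The distance to the nearest start separated the classes in the same direction. The median gap was 0 bp for peaks at a site of another line, since 50.8% (47-54.7) covered a start. It was 22133 bp for peaks at none, of which 16.3% (14.3-18.4) covered a start. More than 50 kb from any protein-coding start lay 14.3% and 30.6% of the classes. The midpoint fell in an exon in 28.2% and 11.5%, in an intron in 32.1% and 41.3%, and between genes in 39.7% and 47.2%. The bars of the start distance plot show that the classes differ most at the start itself and beyond 10 kb, and hardly between the start and 2 kb.

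**Figure D1:**
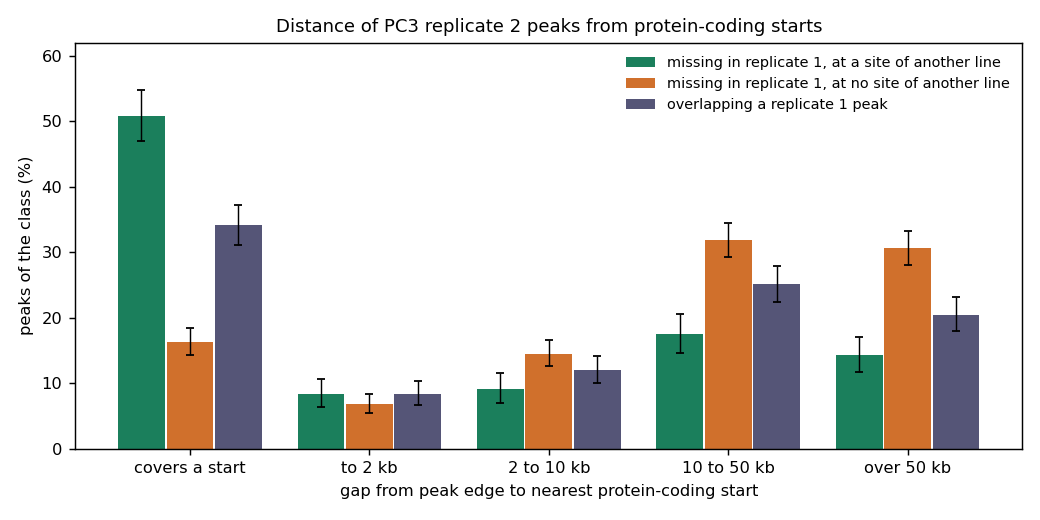
Share of PC3 replicate 2 peaks (vertical axis, %) by the gap from the peak edge to the nearest protein-coding start (horizontal axis), for 3 classes, with 95% exact binomial intervals. Peaks at a site of another line covered a start in 50.8%, peaks at none in 16.3% and peaks overlapping replicate 1 in 34.1%.

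Base composition moved with position. The median GC content was 57.6% at a site of another line and 47.2% at none, and the median CpG density was 5.60 and 1.37 per 100 bp. Widths were closer, with medians of 1226 and 1151 bp.

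Which line shared the peak mattered for where it lay. Missing peaks at a site of T47D alone (137) were at promoters in 71.3% (62.9-78.7), and those at T47D and HCT-116 sites together (164) in 84.8% (78.3-89.9). Those at an A549 site alone (102) were at promoters in 13.7% (7.71-22.0), below the 23.1% of peaks at no site of another line, though these intervals overlap. HCT-116 alone (165) gave 56.4% (48.4-64.1). Missing peaks met HCT-116 sites in 21.8%, T47D sites in 18.9% and A549 sites in 10.8%, against 56.5%, 44.2% and 41.8% of PC3 site peaks. At sites of all 3 lines the shares were 2.34% of missing peaks and 23.9% of PC3 site peaks.

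Scores of the missing peaks are a description, since peak calls of this list chose them. They come from the peak caller, start near 50, have no stated scale and are compared only within the PC3 replicate 2 list. The median was 70.9 (quartiles 58.6-94.2) for missing peaks and 199 (124-371) for PC3 site peaks. Missing peaks at a site of another line had a median of 79.5 (62.9-108), those at none 67.7 (56.9-86.7), and the quartiles overlapped widely. By number of lines the medians were 77.6, 83.4 and 104. Of the replicate 2 peaks scoring 50 to 60, 96.7% were missing in replicate 1, and of those scoring 150 or more, 15.0% (113 of 754).

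The contrast in position held inside every score band. In the lowest band the promoter share was 69.5% (60.8-77.2) at a site of another line and 23.3% (19.4-27.7) at none. In the highest band it was 43.9% (31.7-56.7) and 19.1% (9.15-33.3), the only band in which the intervals overlapped. The share of missing peaks at a site of another line went from 23.6% (20.1-27.4) in the lowest band to 58.4% (48.8-67.6) in the highest. Within each of the 5 bands, a smaller share of missing peaks than of PC3 site peaks was at a site of another line, although the intervals overlapped at scores of 60 to 75. The highest band is open, with missing peaks up to 416.60 and PC3 site peaks up to 3148.03, so it does not set like scores side by side. At scores of 75 to 100 the values were 39.2% (34.6-43.8) against 63.9% (52.6-74.1).

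**Figure D2:**
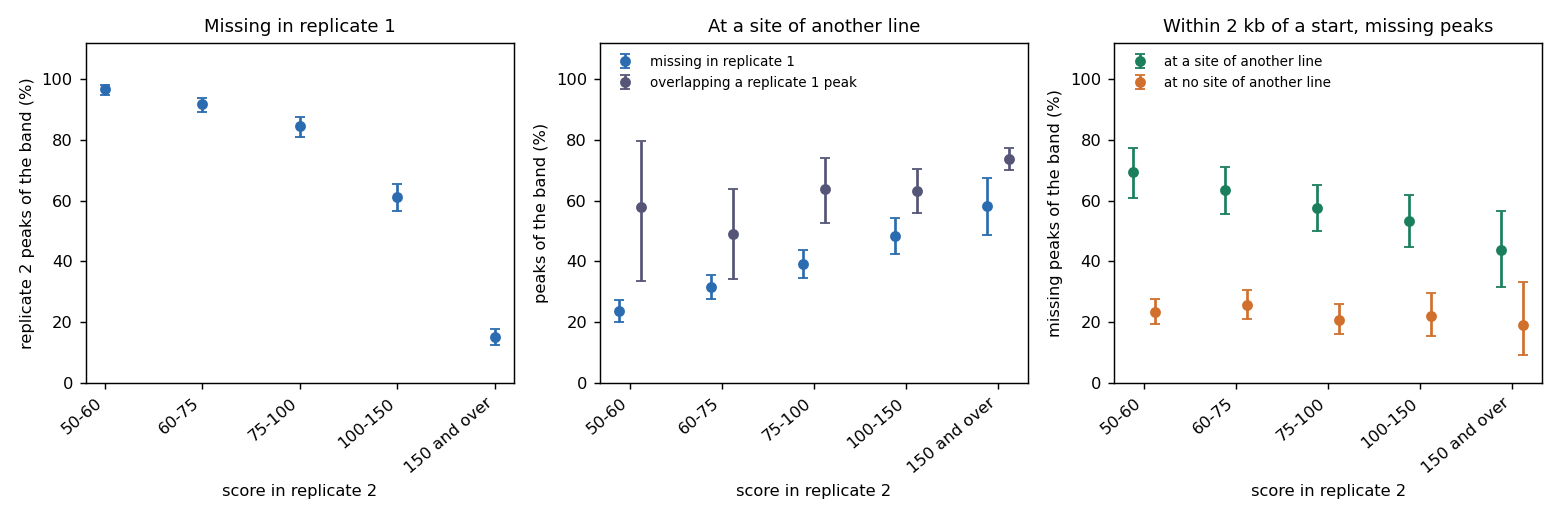
PC3 replicate 2 peaks by score band (horizontal axes, caller's score) with 95% exact binomial intervals: the share missing in replicate 1 (left), the share at a site of another line (middle) and the promoter share of missing peaks (right), all in %. The missing share falls from 96.7% to 15.0%, and peaks at a site of another line stay above those at none in promoter share in all 5 bands.

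At the edge of the rule, the missing peaks nearest to a replicate 1 peak lay 144 bp (SRPK2) and 191 bp (HMGA2) from it. The 3 smallest overlaps that placed a peak outside the set were 465 bp (PDE5A), 477 bp (APOLD1) and 497 bp (GNAI3). Most missing peaks were far from any replicate 1 peak: the median gap was 500240 bp, and 15 of 1921 lay within 1 kb of one.

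The libraries of the other lines took no part in calling a peak missing, although their sites were used to divide the missing peaks. Each library was read here over all missing peaks, undivided. Missing peaks scored lower and were narrower than PC3 site peaks (median widths 1179 and 1387 bp), and PC3 sites merge the peaks of both lists. The comparisons with PC3 sites therefore carry the choice of regions, and nothing beyond the differences is read from them. In T47D replicates 1 and 2, 23.0% and 22.9% of the missing peaks were overlapped by a peak. The shares were 19.3% and 13.4% in A549 replicates 2 and 3, and 35.0% and 22.5% in HCT-116 replicates 2 and 3. All 6 lay below the shares of PC3 sites met by the same libraries, which were 45.4% to 64.2%. The mean difference was -29.4 percentage points (SD 4.19, n = 6 libraries, lower in 6 of 6; two-sided exact permutation test by sign flips p = 0.031, Benjamini-Hochberg adjusted over 3 tests 0.031).

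The peaks found there were also read by their rank, the percentage of a library's peaks with a lower score. At missing peaks, T47D peaks had median ranks of 61.1 and 60.5, A549 peaks 46.4 and 45.1, and HCT-116 peaks 63.0 and 51.8. These ranks lay above those of peaks at no PC3 peak in 6 of 6 libraries, by a mean of 15.8 points (SD 8.20, exact permutation p = 0.031, adjusted 0.031). The difference was 5.08 and 6.17 in the A549 libraries and 18.6 to 25.2 in the other 4. Width and promoter position of each library's own peaks were not held equal here, and their part in this difference was not tested. Against peaks at PC3 sites the ranks were lower in 6 of 6, by a mean of -24.8 points (SD 1.95, exact permutation p = 0.031, adjusted 0.031).

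Each of these p-values is the smallest that 6 libraries allow. Replicates of 1 line are not independent, and with the 3 lines as units the exact p was 0.25, the smallest then possible. Among replicate 2 peaks scoring under 100 on both sides, an alternative chosen after seeing the data, the rank difference from PC3 sites was -7.65 (exact permutation p = 0.094), while the difference in the share met was -20.8 points (p = 0.031).

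**Figure D3:**
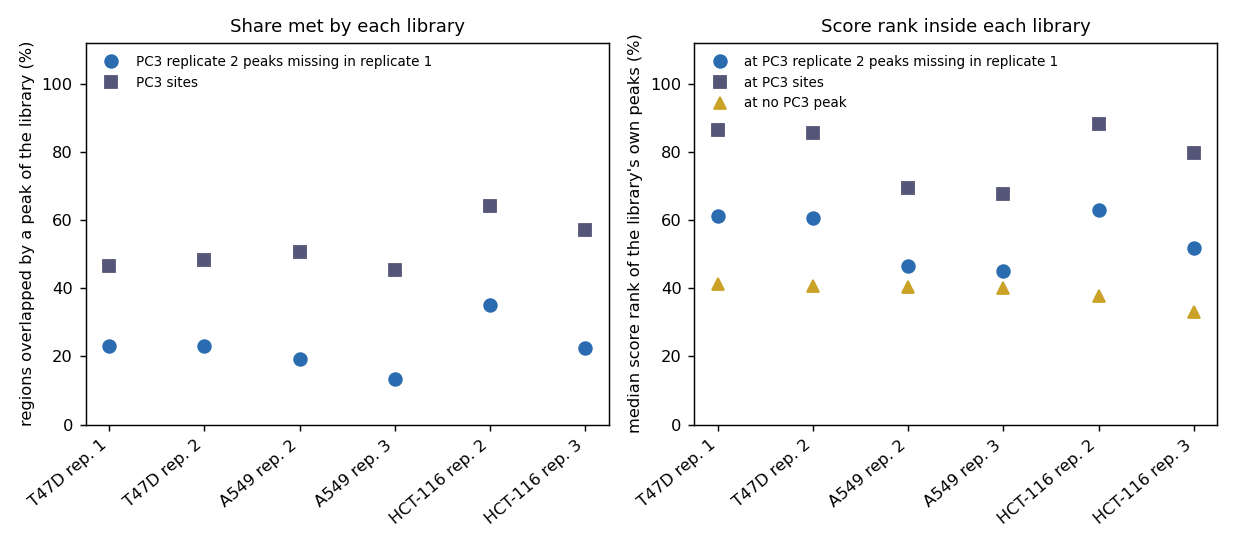
Each point is 1 library of another line (horizontal axes): the share of regions overlapped by its peaks (left, %) and the median score rank of its own peaks by what they overlap in PC3 (right, %). In all 6 libraries the missing peaks lie below PC3 sites in both panels, and their ranks lie above those of peaks at no PC3 peak, least so in A549.

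The HIF core was looked for as ACGTG or GCGTG on both strands, where CACGTG holds ACGTG on each strand and counts as 2 matches. It was within 100 bp of the midpoint in 68.4% (64.7-71.9) of peaks at a site of another line and in 52.4% (49.6-55.2) of those at none, with 71.3% in PC3 site peaks and a background of 62.5% over all replicate 2 peaks. Windows of the same 200 bp length taken 5 kb to either side of the replicate 2 peaks held it in 23.1% (22.0-24.2), and those at the centre of 78492 promoter windows in 40.9%. Over the whole peak the shares were 97.0% and 88.1%, but 1300 bp around starts held the core in 89.0%, so presence over a whole peak separates little.

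The difference in the core was smaller once position was held. At promoters the central 200 bp held it in 75.6% (71.1-79.8) of peaks at a site of another line and 67.0% (61.3-72.4) of those at none, and these intervals overlap. Away from promoters the shares were 57.8% (51.7-63.7) and 48.1% (44.9-51.3), both below the 69.0% (65.0-72.8) of PC3 site peaks, and flanking windows of the same peaks at none held it in 20.7%. The match profile around the midpoints was highest in the 200 bp around the midpoint in every class. In the 100 bp on the lower-coordinate side it stood at 40.4% (36.7-44.2) of peaks at a site of another line and 31.5% (28.9-34.2) of those at none, and on the higher-coordinate side at 43.2% (39.5-47.1) and 28.2% (25.7-30.8). At 2 kb on the higher-coordinate side it was 11.9% and 10.9%.

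TGANTCA ran the other way. It lay in the central 200 bp of 16.8% (14.0-19.8) of peaks at a site of another line and 29.0% (26.5-31.6) of those at none, with 19.4% in PC3 site peaks. Flanking windows held it in 5.87% and 7.47%, and 200 bp promoter windows in 3.73%. Away from promoters the shares were 31.6% (26.2-37.5) and 33.5% (30.5-36.6), with overlapping intervals. At promoters they were 6.53% (4.31-9.43) and 14.2% (10.4-18.8). CCGGAAG, the heptamer of ETS family factors, occurred somewhere in 24.1% (20.9-27.5) of peaks at a site of another line and in 9.38% (7.82-11.1) of those at none, against 23.0% of promoter windows of 1300 bp. This contrast was also smaller once position was held. At promoters the whole-peak shares were 34.2% (29.5-39.1) and 21.5% (16.9-26.7). Away from promoters they were 9.45% (6.27-13.5) and 5.74% (4.35-7.40), with overlapping intervals. A match is a string of letters and not a measured binding site.

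**Figure D4:**
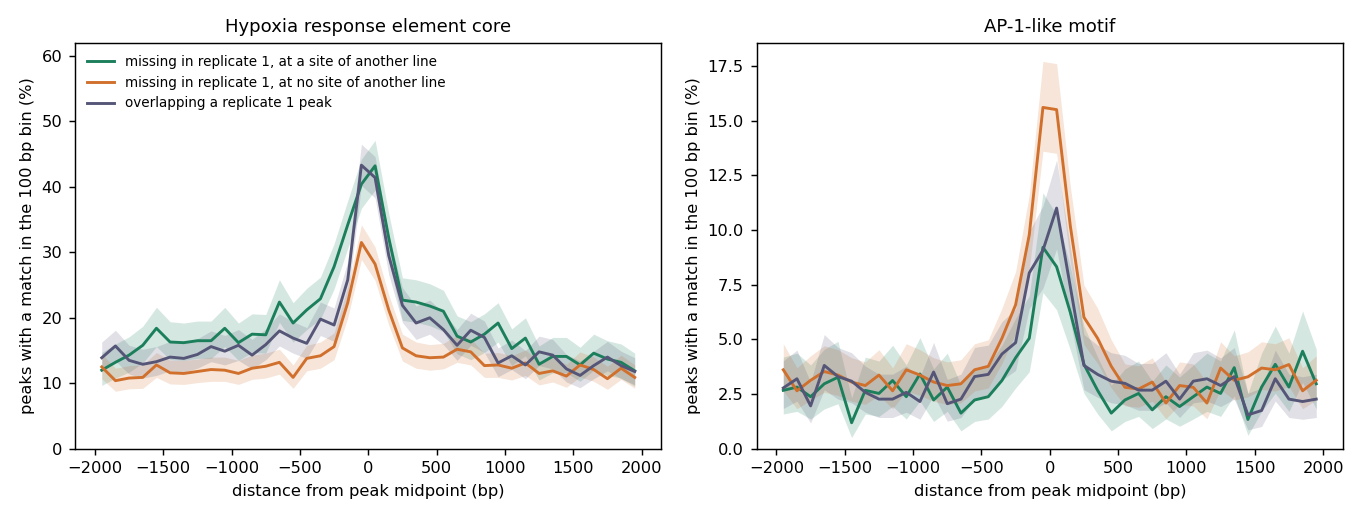
Share of PC3 replicate 2 peaks with a motif match (vertical axes, %) in 100 bp bins by distance from the peak midpoint (horizontal axes, bp), for the HIF core ACGTG or GCGTG (left) and TGANTCA (right), with 95% exact binomial bands. The core peaks at the midpoint in all 3 classes and is lowest at no site of another line, whereas TGANTCA is highest there, at 15.6% against 9.21% at a site of another line in the 100 bp below the midpoint and 15.5% against 8.32% in the 100 bp above it.

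Turning to genes, a missing peak lay within 2 kb of a start of 779 of 19794 protein-coding genes, a background of 3.94%, and a replicate 1 peak did for 493, or 2.49%. The gene lists were chosen with earlier results of these data known, and their counts are descriptions. Of 20 genes of glucose uptake and glycolysis, 17 had a replicate 1 peak and 1, ENO2, had a missing peak. The rule leaves little room for a missing peak where replicate 1 has one: 761 of the 779 genes with a missing peak had no replicate 1 peak within 2 kb, so the counts of the 2 kinds of peak are not independent and nothing is read from their contrast. None of 11 pyruvate dehydrogenase kinase and mitophagy genes had one, where replicate 1 had peaks at 5.

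ENO2, an enolase of glycolysis, had its peak over a start (chr12:7022916-7024169). It scored 211 in PC3 replicate 2, 73.3 and 77.6 in the T47D replicates, 141 and 99.4 in A549, and 650 and 345 in HCT-116. PC3 replicate 1 was the only 1 of the 8 lists without a peak at this promoter.

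Among 11 oxygen sensing genes and HIF subunits, CITED2 and HIF1AN had missing peaks. CITED2 competes with HIF-α for the coactivators CBP and p300, and HIF1AN hydroxylates HIF-α and blocks that same contact. The CITED2 peak (chr6:139695977-139697588, 191 bp from a start) scored 238 in PC3 replicate 2, 810 and 1229 in T47D, 518 and 377 in A549, and 405.4 and 241.6 in HCT-116. The HIF1AN peak (chr10:102288756-102290427) scored 69.4, with 224 and 78.9 in HCT-116, 80.4 in T47D replicate 1 and no peak in T47D replicate 2 or A549. It also covers a start of NDUFB8, so both genes count on the same interval.

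Of 14 angiogenic and secreted factors, 4 had missing peaks and 3 had replicate 1 peaks. VEGFA, the main vascular growth factor, scored 54.6 near the floor of the list, with 376 and 206 in T47D, 162 and 98.3 in HCT-116 and no peak in A549. The VEGFA interval (chr6:43738435-43739889) held 9 matches to the core. STC1, a secreted glycoprotein, scored 104 at an A549 site. EDN1, the precursor of the vasoconstrictor endothelin, scored 84.3 at no site of another line, with 61.5 in HCT-116 replicate 2 alone, and lay 1483 bp from a replicate 1 peak. CXCL8, a neutrophil chemokine, scored 275, with no peak in any of the 6 libraries, no match to the core and 1 to TGANTCA.

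JMJD6 (107) and KDM5C (108), both of the JmjC family of oxygenases, were the 2 of 13 in their list, against 6 with a replicate 1 peak. KDM5C lay at sites of all 3 lines, with scores of 84.6 to 171 across the 6 libraries. HES1, a Notch target and transcriptional repressor, scored 104 in PC3 replicate 2 and 344 and 637 in T47D, 311 and 135 in A549, and 156 and 56.6 in HCT-116. NFE2L2, the regulator of antioxidant genes, scored 59.0 in PC3 replicate 2 and 55.3 to 359 across the other libraries. These 3 promoters had peaks in all 6 libraries of the other lines. GYS1, the muscle glycogen synthase, and PPP1R3B, a glycogen-targeting phosphatase subunit, gave 2 of 7 in the glycogen list, at 90.6 and 53.0. The GYS1 interval also lay within 2 kb of a start of RUVBL2, and the JMJD6 interval within 2 kb of a start of METTL23.

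The next lists gave 0 to 2 genes each. LOXL2, a collagen cross-linking oxidase, was 1 of 8 collagen-modifying genes, and FTL, the ferritin light chain, 1 of 8 iron and heme genes. NFE2L2 was 1 of 8 AHR targets and HES1 1 of 10 bHLH and MYC network genes. NDRG1 and PPP1R15A were 2 of 14 stress genes, NDRG1 also having a replicate 1 peak at a promoter. NR1D2 was 1 of 14 clock genes, its interval also lying within 2 kb of a start of NKIRAS1, and DUSP1 was 1 of 13 immediate early genes. VIM, a mesenchymal filament gene, was 1 of 18 in the list named prostate and epithelial identity. No gene of pH control had a missing peak within 2 kb, but 3 of 7 had one within 25 kb, where 8.93% of all genes did and 5.85% had a replicate 1 peak. The same wider count was 7 of 14 for angiogenic and secreted factors, 8 of 20 for splicing, 8 of 81 for ribosomal proteins and 0 of 11 for pyruvate dehydrogenase kinases and mitophagy. The 3 pH control genes were named after their values were seen: CA9 and CA12, carbonic anhydrases, with peaks 15421 and 8905 bp from a start at sites of 3 and 2 other lines, and SLC4A7, a bicarbonate transporter, at none. The interval counted for CA9 lay within 2 kb of a start of another gene, CCDC107, so it is a promoter peak of that gene.

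Housekeeping lists were counted the same way, and no difference between lists was tested. Splicing and RNA processing had missing peaks at 6 of 20 promoters (30.0%, 11.9-54.3), against the 3.94% background, and replicate 1 peaks at 2. The 6 were HNRNPU (2 peaks, 76.7 and 77.8), SF3B1 (53.6), SRSF1 (59.3), SRSF4 (57.0), SRSF7 (57.3) and SRSF9 (91.8), of which SRSF9 also had a replicate 1 peak. In 4 of them a peak lay at a site of another line, and T47D and HCT-116 each had sites at 8 of the 20 promoters. SRSF4 scored 234 and 214 in T47D and 266 and 166 in HCT-116. The SRSF7 interval also lay within 2 kb of a start of GEMIN6, and the SRSF9 interval within 2 kb of a start of DYNLL1. Of 48 nuclear genes of oxidative phosphorylation 3 had a missing peak: COX5A (54.2), CYCS (66.3) and NDUFB8, all at sites of another line. Chaperones gave 2 of 18, HSP90B1 and HSPA9, translation factors 0 of 18, and cytosolic ribosomal proteins 1 of 81 (1.23%, 0.0313-6.69), RPS29. The RPS29 interval also lay within 2 kb of a start of LRR1.

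**Figure D5:**
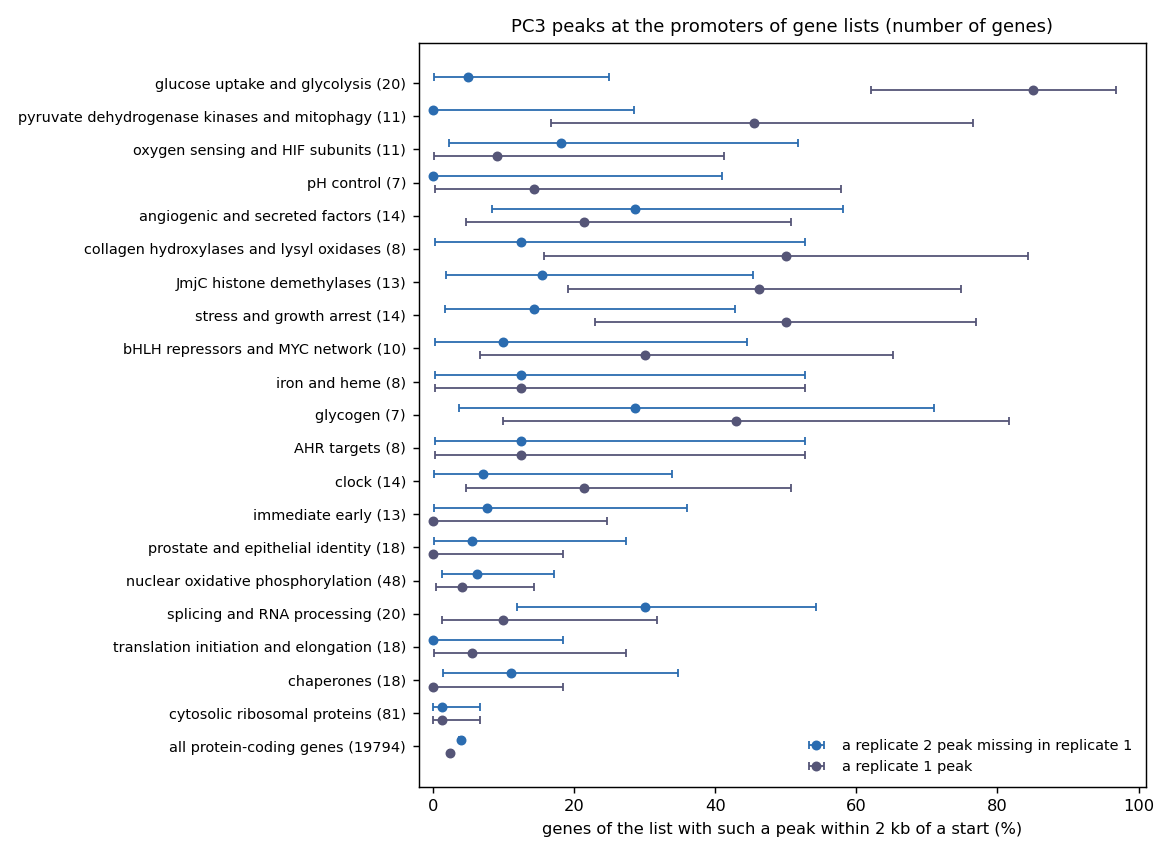
Share of genes in each list (vertical axis, number of genes in brackets) with a PC3 peak within 2 kb of a start (horizontal axis, %), for replicate 2 peaks missing in replicate 1 and for replicate 1 peaks, with 95% exact binomial intervals. Glycolysis genes stand at 85.0% for replicate 1 and 5.0% for missing peaks, splicing genes at 10.0% and 30.0%, and the rule itself sets the kinds of peak apart.

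The highest-scoring missing peaks lay mostly away from promoters in both classes. For peaks at no site of another line this was also so of the whole class, 959 of 1247, so the highest scores do not stand apart. At a site of another line, 275 of 673 peaks of the class lay away from promoters. Of the 10 highest at a site of another line, 3 were within 2 kb of a start (CITED2, AP3S2 and UPRT), and 8 were at an A549 site. In the whole class 208 of 674 peaks were at an A549 site. The CITED2, SCD, SUSD1 and GPRC5A intervals were at HCT-116 sites as well. ALCAM, a cell adhesion molecule, had the highest score, 287, in an intron 33877 bp from a start, with 117 and 78.6 in A549. SCD, a fatty acid desaturase, was the nearest gene to an intergenic interval of 4953 bp, 22937 bp from a start. This interval scored 268 and met peaks of all 6 libraries, at 283 and 213 in A549 and 68.9 to 163 in the other 4. SUSD1, with an intron interval 99901 bp from a start, scored 257 in PC3 replicate 2 and 789 and 388 in A549. The others were ITGB1 (255), GPRC5A (233), LOXL2 (219 at a second interval in an intron) and PITPNM2 (218), of which ITGB1 had no match to either motif.

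Of the 10 highest at no site of another line, 9 overlapped no peak of the 6 other libraries, and SOX9 overlapped 1. CUL2, a cullin that scaffolds ubiquitin ligases including that of VHL, was the nearest gene to the highest, 417, but 64288 bp away between genes. APLN, the precursor of the vascular peptide apelin, scored 247 at 257 bp from a start, with 8 matches to the core. TENM4 (290), C11orf80 (262), ZNF365 (261), ETS1 (254), PROSER2 (248) and EHF (228) made up the rest with CXCL8. The intervals named for ETS1 and EHF lay 477885 and 113883 bp from the nearest start. At least 1 TGANTCA was in 8 of the 10 at no site of another line and in 7 of the 10 at a site. The share was 52.6% of all missing peaks and 66.8% of those away from promoters, where most of these peaks lay. Some of the intervals were also wide, 4953 bp for SCD and 4422 bp for ZNF365, against a median of 1179 bp for missing peaks. No enrichment is read from these counts.

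At sites of all 3 lines the 5 highest scores were those of SCD, CITED2, HPRT1 (215), ENO2 and POLI (202), the SCD interval lying 22937 bp from a start. HPRT1, a purine salvage enzyme, scored 105 and 165 in T47D, 144 and 104 in A549, and 433 and 140 in HCT-116. POLI, a translesion DNA polymerase, scored 295 and 211 in T47D, 72.0 and 80.7 in A549, and 694 and 283 in HCT-116. These scores come from separate lists with no common scale and are given side by side only.

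For comparison, peaks listed in 1 replicate alone were counted in every library. PC3 replicate 2 had the largest unpaired share, 66.4%, followed by HCT-116 replicate 2 at 53.5%, and the other 6 lists had 6.91% to 41.0%. Unpaired peaks lay at a site of another line in 35.1% for PC3 replicate 2, in 33.0% and 36.8% for the A549 replicates, 26.4% for PC3 replicate 1, and 12.1% to 20.4% for T47D and HCT-116. These shares were set against different sites for each line and were not tested. The 2 PC3 lists differ in length, 1042 and 2891 peaks, and only 72 replicate 1 peaks (6.91%) were unpaired. With 1 replicate 2 peak to each replicate 1 peak, most of the longer list must stay unpaired. The HCT-116 lists also differ, with 3790 and 1913 peaks. The order of the unpaired shares therefore largely restates list length. The part of list length in the other results was not tested.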

How the data were processed

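HIF-1β ChIP-seq peak lists of 8 libraries from 4 cell lines were used, 2 replicates a line, grouped by the GEO titles. Per the labels, the authors trimmed and aligned reads to GRCh37/hg19 and called peaks with MACS (version not given in the sources used here). The study's methods also name the caller T-PIC and keep peaks found by both callers, and whether the deposited lists had passed that step is not given in the sources used here. The submitters' processing notes name Trim Galore 0.3.3, BWA 0.7.5a-r405, SAMtools 0.1.19, Picard 1.106 and bedtools 2.17.0. The deposited values are intervals with a score per peak, whose scale is not stated, and no input or read depth, so the precision that depth gives is unknown.

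Overlaps (at least 1 bp), sites and distances were computed in Python 3.11.15 and checked on simulated data against bedtools 2.31.1. Starts were those of protein-coding transcripts of protein-coding genes in GENCODE release 44, lifted by its makers to GRCh37. Shares have 95% exact (Clopper-Pearson) intervals. The 3 exact permutation tests flipped signs over 6 libraries (SciPy 1.17.1), with Benjamini-Hochberg adjustment. 1 member off the main chromosomes was left out of sequence and gene counts.

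Members and gene lists were chosen with earlier results of these data known. Named were list genes with a member within 2 kb, the nearest genes of the 10 highest scores of each class and the 5 highest at 3 lines, and 3 peaks on each side of the overlap limit, of which 1 is not reported here. Alternatives covered overlap, score, site definition, promoter width, motif, units and each library left out.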

Additional observations from a re-analysis of the deposited data

How the results depend on the processing

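Of 115 alternative values none reversed, 68 kept their side of the threshold or moved little, 25 moved and 22 lost the threshold. In the higher-scoring 50% of the replicate 2 list, 48.2% of the missing peaks were at a site of another line, with promoter share 53.4% there, median scores of 114 and 109 at a site and at none, and the whole-peak core in 92.0% at none. With a peak of either replicate counted as a site, the share was 51.1%, promoter shares 53.8% and 16.9%, and the median score at a site 76.7. With sites from the higher-scoring 50% of both lists, the share was 20.2%, the promoter share at none 29.4% and the median score at a site 83.9. A 500 bp promoter gave 18.7% at none, and all annotated genes gave 70.6% and 36.4%. The core was held by 68.4% and 52.4% in the central 200 bp, and ACGTG alone by 84.4% and 71.8%.

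Leaving out 1 library of another line turns every peak of its partner into a site. The share at a site was then 35.7% to 43.4% (highest without HCT-116 replicate 3), promoter shares were 53.9% to 59.9% and 18.6% to 23.7%, median scores 77.7 to 79.6 and 67.1 to 67.9, and core shares 96.1% to 97.2% and 86.9% to 88.0%. The 3 library differences ranged from -30.5 to -28.3, 13.9 to 17.9 and -25.3 to -24.2, each with an exact permutation p of 0.062, the smallest 5 libraries allow. With 3 lines as units they were -29.4, 15.8 and -24.8 (exact p = 0.25, the smallest possible). With scores under 100 on both sides, chosen after seeing the data, the rank difference from PC3 sites was -7.65 (exact permutation p = 0.094), and the cause was not tested. No PC3 replicate could be left out, since both define the members. No paired analysis was possible because no groups of samples that share replicate numbers were compared, so the number could not serve as a replicate block. The 3 tests already take differences within each library.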
